A study of Mus musculus with 2 samples.

Results

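Lum, Dcn, Bgn, Fbn1, Fn1, Sparc, Postn, Lox, Loxl1 and Loxl2 encode noncollagen proteins of the extracellular matrix and enzymes that crosslink collagen. The 10 genes were chosen by name, and all 10 were among the 19059 genes of the probe panel. They were followed in 2 single-cell libraries of mouse liver, first by the cell class that carried each transcript and then by the difference between the libraries. In hepatic stellate cells the difference was set against that of Reln and Lrat, a pair of genes that mark this cell type. Lrat serves retinoid storage and is known to fall as stellate cells activate, so the pair is not independent of cell state.

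The collagen network of scar tissue is built and trimmed by other proteins. Lumican (Lum), decorin (Dcn) and biglycan (Bgn) are small leucine-rich proteoglycans that sit on collagen fibrils and set their spacing, and decorin and biglycan also bind growth factors of the TGF-β family. Fibrillin-1 (Fbn1) forms microfibrils, fibronectin (Fn1) is a glycoprotein that cells bind through integrins and that also circulates in plasma, where it is made by hepatocytes, and osteonectin (Sparc) and periostin (Postn) are matricellular proteins that bind collagen. Lysyl oxidase (Lox) and its relatives Loxl1 and Loxl2 oxidize lysines so that collagen and elastin chains become joined. In injured liver much of this matrix is made by stellate cells and portal fibroblasts.

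Both libraries came from livers of mice aged 27 weeks, kept on a high-fat/high-sugar diet (HF/HSD) for 20 weeks from the age of 7 weeks to bring on metabolic dysfunction–associated steatohepatitis. By its label, the AEG-1fl/fl library came from mice with the AEG-1 (Mtdh) gene flanked by loxP sites and no Cre. The AEG-1DMAC library, again by its label, came from littermates that carried the same floxed alleles. In mice of that genotype Cre, driven from the Lyz2 (LysM) locus, removes AEG-1 in myeloid cells. There was 1 library per genotype, and whether a library pooled several livers was not given in the sources used here, so a genotype and a library cannot be told apart and no test between them was possible.

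After cells with under 100 genes or over 10% mitochondrial counts were left out, 2571 cells remained in the AEG-1DMAC library and 3508 in the AEG-1fl/fl library, with 10 barcodes in common. Mtdh went against the labels: in macrophage-gated cells it stood at 117 CPM (a gene's counts scaled to a common total for the class; 381 counts) in the library labelled AEG-1DMAC and at 25.2 CPM (159 counts) in the library labelled AEG-1fl/fl. In the other classes of at least 100 cells per library Mtdh differed far less. In the same order it stood at 99.7 and 91.5 CPM in stellate-gated, 61.9 and 57.3 CPM in hepatocyte-gated and 88.5 and 107 CPM in endothelial cells. Where the Mtdh probes lie relative to the deleted part of the gene was not given in the sources used here. Whether the labels were exchanged was not tested. Every direction below is therefore that of the library as labelled. Y-linked transcripts were present in both libraries.

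Cells were put in classes by marker genes that did not include any of the 10 genes, and a cell had to hold a set share of counts in at least 3 distinct markers. The stellate gate passed 131 cells of the AEG-1DMAC library, 5.10% of its cells (exact 95% interval 4.28 to 6.02%), and 218 cells of the AEG-1fl/fl library, 6.21% (5.44 to 7.06%). Reln, Lrat and Ecm1 had been kept out of that gate, and they marked the class. Reln, a secreted guidance protein, stood at 858 and 1221 CPM in the stellate-gated cells against 20.0 and 17.4 CPM in hepatocyte-gated cells. Lrat, which esterifies retinol for storage, stood at 303 and 582 CPM against 11.8 and 11.1 CPM. A further 18 and 44 cells passed both the stellate gate and a portal fibroblast gate and were kept as a class of their own. They were somewhat deeper, with medians of 6126 and 6657 counts per cell against 4004 and 4773 counts, and no doublet caller was run, so mixed droplets among them were not told from single cells.

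RNA of other cells was present in every class. The summed level of 10 hepatocyte markers in stellate-gated cells came to 64.4% of its hepatocyte level in the AEG-1DMAC library and 57.4% in the AEG-1fl/fl library, and all 10 markers were higher in the former. The 12 macrophage markers summed to 2081 and 2121 CPM and the 11 endothelial markers to 697 and 687 CPM, with 6 and 5 of them higher in the AEG-1DMAC library. The 12 portal fibroblast markers summed to 409 and 515 CPM. A larger share of hepatocyte RNA lowers the CPM of every stellate gene, which is why each difference is given below both on the CPM scale and relative to Reln and Lrat.

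All 10 genes but Fn1 were highest in a stellate class in both libraries. Fn1 was highest in stellate-gated cells of the AEG-1fl/fl library and, in the AEG-1DMAC library, in a neutrophil class of 8 cells and 64 Fn1 counts, whose counting interval overlapped that of the stellate-gated cells. Lum, Bgn, Fbn1, Sparc, Lox, Loxl1 and Loxl2 were highest in the cells past both gates and Dcn and Postn in the cells past the stellate gate alone, and for these 9 genes the counting intervals of the first and second class did not overlap. In stellate-gated cells their levels were 16.5 to 37.9 times those of hepatocyte-gated cells in the AEG-1DMAC library and 31.3 to 76.1 times in the AEG-1fl/fl library. Because the assay reads genes through different numbers of probes, levels were compared between classes and libraries for a gene and never between genes.

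**Figure D1:**
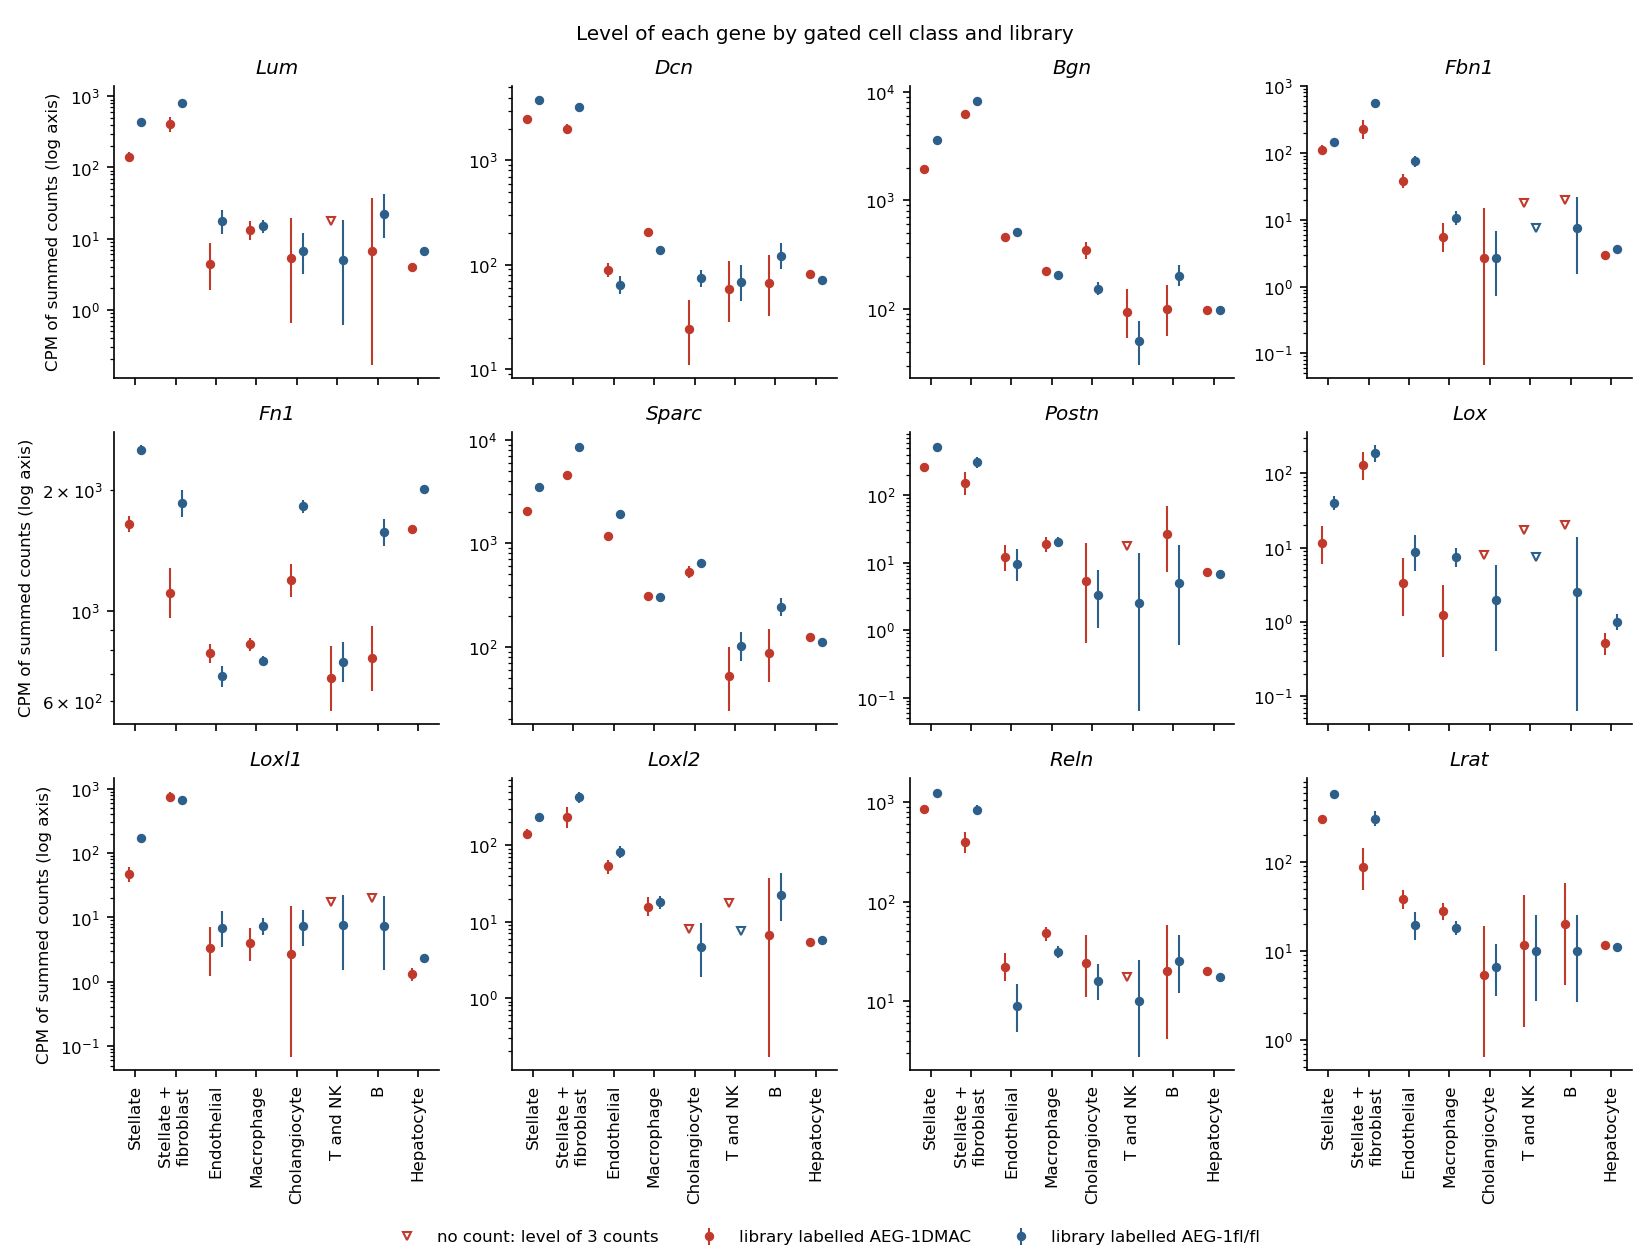
CPM of summed counts (log axis, with exact Poisson 95% intervals) of the 10 genes and of Reln and Lrat in each gated cell class, in the library labelled AEG-1DMAC (red) and the library labelled AEG-1fl/fl (blue); open triangles mark classes with no count, drawn at the level of 3 counts, and the neutrophil class of 8 and 43 cells is left out. Both stellate classes stand above the measured points of the others for every gene but Fn1. For Lox in the AEG-1DMAC library the T and NK and B triangles lie above the stellate point, so those classes are not shown to be lower. Sparc, Bgn, Fbn1 and Loxl2 have a next level in endothelial cells.

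In stellate-gated cells all 10 genes were lower in the library labelled AEG-1DMAC, by a median of −0.80 on the log2 scale, while the median over all 10669 genes with at least 20 counts was −0.10 and 59.5% of them were below 0. Lum, Lox and Loxl1, 3 of the 10, were at least 2-fold lower, against 5.29% of all genes compared. Reln and Lrat summed were themselves lower by −0.64 (95% interval −0.73 to −0.54). Relative to them the median of the 10 genes was −0.17, and Lox and Loxl1 were at least 2-fold lower, against 1.39% of all genes. Genes at least 4-fold higher in stellate-gated than in hepatocyte-gated cells, as all of the 10 but Fn1 were, had a median of −0.26, and 13.4% of those 1392 genes were at least 2-fold lower, or 3.81% relative to Reln and Lrat. No member was at least 2-fold higher, against 1.34% of all genes.

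**Figure D2:**
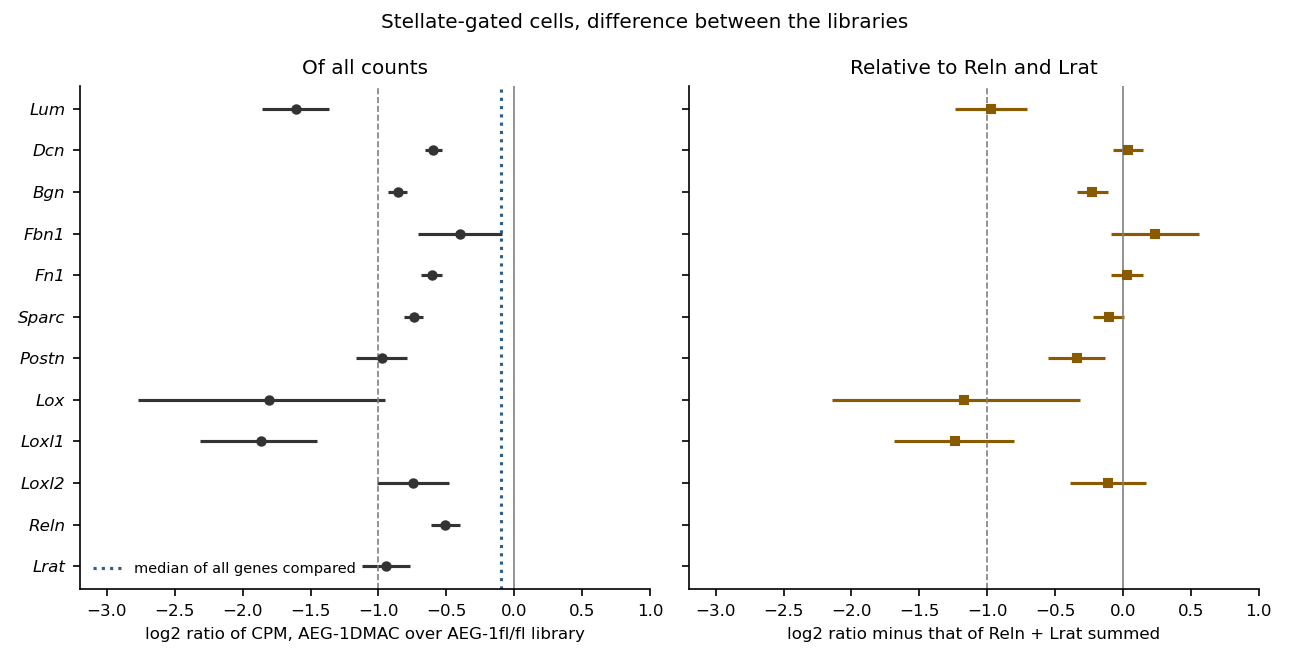
Left, log2 ratio of CPM in stellate-gated cells, library labelled AEG-1DMAC over library labelled AEG-1fl/fl, for the 10 genes and for Reln and Lrat; right, the same minus the log2 ratio of Reln and Lrat summed. Points have 95% intervals for counting error, the dashed line marks 2-fold lower and the dotted line the median of all genes compared. Intervals here and throughout cover counting error only. All points on the left are below 0, and on the right Lum, Lox and Loxl1 stand apart from the rest, which lie between −0.34 and 0.24.

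The count of genes at least 2-fold lower rested on how the cells were gated. It was 1 with cells assigned by whole profile and 5 with all marker shares doubled. It was 6 with the shares halved or with Reln, Lrat and Ecm1 added to the gate. In each of these all 10 genes were below 0. Reln and Lrat summed moved too, and lay between −0.97 and −0.38 across all alternatives. The share of all genes was computed for the gates as set only, so these counts have no background of their own.

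The choice of reference gene set the size of the relative values. Reln differed by −0.51 (−0.62 to −0.40) and Lrat by −0.94 (−1.12 to −0.77), so the median of the 10 genes was −0.29 relative to Reln alone and 0.14 relative to Lrat alone. Ecm1, a matrix glycoprotein also marking stellate cells, stood at 2689 and 2751 CPM, a difference of −0.03 (−0.10 to 0.03), and relative to it the median was −0.77. Against Lrat alone no member was 2-fold lower, whereas against Reln alone or Ecm1 alone Lum, Lox and Loxl1 were. The share of all genes was not computed against single reference genes.

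The small leucine-rich proteoglycans did not move as a block. Lumican (chr10:97565128-97572703, plus strand, in the GRCm38 annotation) stood at 141 CPM in stellate-gated cells of the AEG-1DMAC library (160 counts) and at 429 CPM in those of the AEG-1fl/fl library (910 counts), 3.04-fold higher in the latter. The log2 ratio was −1.60 (−1.86 to −1.36), and relative to Reln and Lrat it was −0.97 (−1.24 to −0.71). For every 1000 counts of Reln and Lrat there were 122 and 238 counts of Lum.

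The lumican difference was also seen in how many stellate-gated cells held the transcript. With each cell thinned to 1500 counts, 25.9% of 108 cells (18.0 to 35.2%) and 48.4% of 186 cells (41.0 to 55.8%) held a Lum count, against 38.2 and 68.8% of all cells unthinned. Shares of Reln-positive cells at this depth were 70.4 and 70.4%. Those of Lrat-positive cells were 44.4% (34.9 to 54.3%) and 52.2% (44.7 to 59.5%), with overlapping intervals. In hepatocyte-gated cells, taken as background, the thinned share for Lum was 0.96 and 1.43%, and their median depth was 24285 and 22964 counts against the 4004 and 4773 of stellate-gated cells. The median stellate-gated cell had 0 Lum counts in the AEG-1DMAC library and 1 in the AEG-1fl/fl library, and the tenth of cells with most Lum held 58.8 and 49.6% of the counts.

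Decorin (chr10:97479609-97518143, plus strand), next to Lum on the same chromosome, stood at 2497 and 3770 CPM. The log2 ratio was −0.59 (−0.66 to −0.53), and relative to Reln and Lrat summed it was 0.04 (−0.07 to 0.15). Relative to Lrat alone it was 0.35 (0.16 to 0.54) and relative to Ecm1 alone −0.56. Nearly all thinned stellate-gated cells held a count, 91.7 and 91.9%, a share too near its ceiling to show a difference in level. The pattern of Dcn over classes was closest to that of Colec11 (r = 0.98 of log2 CPM over the 18 class-by-library sums, a description only, since the sums share libraries).

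Biglycan (chrX:73483602-73495933, plus strand) lay between Lum and Dcn. It stood at 1958 and 3552 CPM, a log2 ratio of −0.86 (−0.93 to −0.79) or, relative to Reln and Lrat, −0.22 (−0.34 to −0.11). Relative to Lrat alone it was 0.08, so the sign of this small difference depended on the reference. Outside the stellate classes Bgn was found in endothelial cells at 459 and 507 CPM, where the hepatocyte RNA present would give 52.0 and 35.2 CPM. The endothelial log2 ratio was −0.14 (95% interval from −0.28), with an upper bound just under 0.

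Fibrillin-1 (chr2:125300594-125507993, minus strand) had the ratio nearest 0 of the 10 with the gates as set. In stellate-gated cells it stood at 111 CPM (126 counts) and 146 CPM (310 counts), a log2 ratio of −0.40 (−0.71 to −0.09), and relative to Reln and Lrat 0.24 (−0.08 to 0.56), an interval that holds 0. With the cells past both gates joined the ratio was −0.69, with shares doubled −0.85, and with cells past several gates kept in their higher class −0.80, where the relative value turned to −0.18. The thinned shares of cells, 21.3 and 24.7%, overlapped in their intervals. Endothelial cells held Fbn1 at 38.2 and 74.6 CPM, a log2 ratio of −0.97 (−1.42 to −0.53), against 2.94 and 3.67 CPM in hepatocyte-gated cells.

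Fibronectin (chr1:71585520-71653200, minus strand) had the largest share of its counts in hepatocyte-gated cells among the 10 genes in both libraries. Hepatocyte-gated cells held 85.4% of all Fn1 counts in the AEG-1DMAC library and 79.9% in the AEG-1fl/fl library, and stellate-gated cells held 1.5 and 3.13%. Of the other 9 genes, hepatocyte-gated cells, far more numerous and deeper, held 23.1 to 46.9% and 14.8 to 27.0% of the counts. Hepatocyte-gated cells held Fn1 at 1602 and 2017 CPM, a log2 ratio of −0.33 (−0.34 to −0.32). Split by the ratio of pericentral to periportal markers, the periportal, middle and pericentral groups of hepatocytes gave 1647, 1576 and 1580 CPM in the AEG-1DMAC library and 2028, 2048 and 1959 CPM in the AEG-1fl/fl library. The groups differed far less than the libraries did.

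Stellate-gated cells held Fn1 at 1651 and 2514 CPM, above the 1032 and 1157 CPM that their hepatocyte RNA would give. The log2 ratio was −0.61 (−0.68 to −0.53) and, relative to Reln and Lrat, 0.03 (−0.09 to 0.15). With the hepatocyte profile taken off, the ratio was −0.90 and the relative value −0.49, so the value near 0 did not hold once hepatocyte RNA was removed. Cholangiocyte-gated cells, 26 and 90 of them, also exceeded their hepatocyte RNA, with 1196 and 1823 CPM against 674 and 823 CPM. Endothelial cells did not, at 787 and 690 CPM against 857 and 732 CPM.

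In macrophages the level of Fn1 was set beside the hepatocyte RNA of each state. Kupffer-high cells, those in which lipid-associated markers made up at most a fraction of 0.1 of the counts of Kupffer and lipid-associated markers, held 831 CPM (179 cells) and 641 CPM (217 cells), below the 978 and 853 CPM that their hepatocyte RNA would give. Lipid-associated-high macrophages, with a fraction of at least 0.5, held 864 CPM (26 cells, 106 counts) and 746 CPM (192 cells, 1077 counts), above the 352 and 374 CPM from hepatocyte RNA. Macrophages between these states held 822 CPM (87 cells) and 817 CPM (300 cells), above 710 and 744 CPM. In the AEG-1DMAC library the intervals of total Fn1 CPM of the 3 states overlapped, while their hepatocyte RNA differed. In the AEG-1fl/fl library the Kupffer-high interval, 603 to 681 CPM, lay below those of the states between (786 to 848) and lipid-associated-high (702 to 792). The part of Fn1 beyond hepatocyte RNA was not tested between states. In lipid-associated-high macrophages the libraries differed by 0.21 (−0.09 to 0.50), an interval that holds 0.

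**Figure D3:**
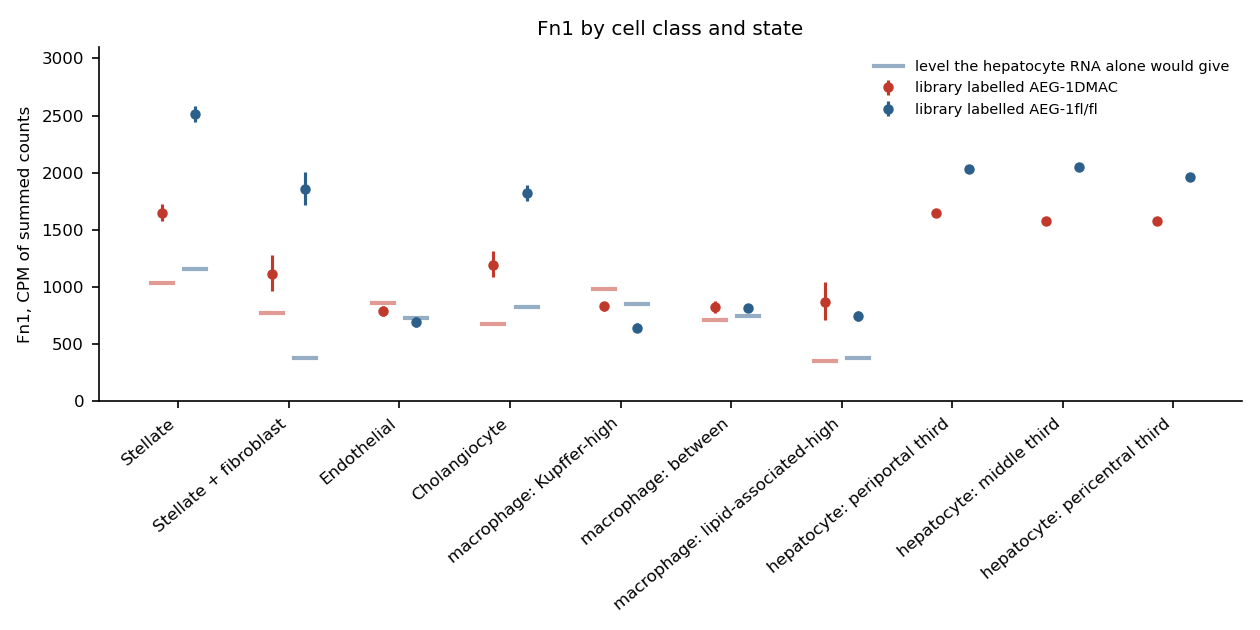
Fn1 in CPM (linear axis from 0, exact Poisson 95% intervals) by cell class, macrophage state and hepatocyte group in the library labelled AEG-1DMAC (red) and the library labelled AEG-1fl/fl (blue); bars show the level that the hepatocyte RNA in that class would give, and are not drawn for hepatocytes. Stellate, cholangiocyte and lipid-associated-high macrophage points stand above their bars and Kupffer-high and endothelial points below.

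Sparc (chr11:55394500-55423183, minus strand) was measured above its hepatocyte level in several classes. It stood at 2073 and 3465 CPM in stellate-gated cells, a log2 ratio of −0.74 (−0.81 to −0.67) that came to −0.11 (−0.22 to 0.01) relative to Reln and Lrat. Endothelial cells held it at 1171 and 1938 CPM, a log2 ratio of −0.73 (−0.81 to −0.65), and 76.2 and 86.9% of them had a count when thinned. Cholangiocyte-gated cells held 530 and 643 CPM, against 126 and 111 CPM in hepatocyte-gated cells. Over the classes Sparc was most like Col4a1 and Timp3, a basement membrane collagen and a protease inhibitor (r = 0.98 and 0.97).

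In endothelial cells 9 of the 10 genes had at least 20 counts. Of these, 6 had ratios below 0, that is lower in the AEG-1DMAC library, as did 63.6% of all 10606 genes compared. Lum and Lox were at least 2-fold lower, against 4.21% of all genes, on 36 and 20 summed counts. The median of the 9 genes was −0.64 and that of all genes −0.16. Hepatocyte RNA made up 53.5 and 36.3% of the hepatocyte level in these cells, and the 11 endothelial markers summed to 8415 and 11734 CPM. The part of that difference in RNA make-up in the Sparc, Fbn1 and Loxl2 values was not tested. With genes abundant in hepatocytes left out of the total the Sparc ratio was −0.49, and with the hepatocyte profile taken off it was −0.33.

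Periostin (chr3:54361109-54391037, plus strand) was concentrated in stellate-gated cells. They held it at 261 and 513 CPM, against 12.2 and 9.49 CPM in endothelial cells, 18.8 and 20.2 CPM in macrophages and 7.32 and 6.74 CPM in hepatocyte-gated cells. The log2 ratio was −0.97 (−1.16 to −0.79), or −0.34 (−0.55 to −0.13) relative to Reln and Lrat. Relative to Lrat alone it was −0.03. Reln and Lrat were the genes whose pattern over the classes was closest to that of Postn, with r = 0.97 and 0.96 over the 18 sums.

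The upstream sequences of Postn and Bgn are shown because Postn, like Reln and Lrat, was highest in the cells past the stellate gate alone and Bgn in the cells past both gates. The RefSeq promoter table for GRCm38.p6 matched 4 of the 10 genes, Bgn, Fbn1, Sparc and Postn, and the windows of Fbn1 and Sparc overlapped annotated exons and are not printed. The 250 bases before the start are chrX:73483351-73483600 for Bgn and chr3:54360857-54361106 for Postn, both on the plus strand and read 5′ to 3′. Capitals mark matches to the letters TATAAA or to GGGCGG, the GC box, on either strand.
Bgn: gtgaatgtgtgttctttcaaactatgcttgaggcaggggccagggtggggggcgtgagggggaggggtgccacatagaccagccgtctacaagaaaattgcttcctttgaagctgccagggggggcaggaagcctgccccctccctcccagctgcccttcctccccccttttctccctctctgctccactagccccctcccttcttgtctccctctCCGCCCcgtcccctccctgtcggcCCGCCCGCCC
Postn: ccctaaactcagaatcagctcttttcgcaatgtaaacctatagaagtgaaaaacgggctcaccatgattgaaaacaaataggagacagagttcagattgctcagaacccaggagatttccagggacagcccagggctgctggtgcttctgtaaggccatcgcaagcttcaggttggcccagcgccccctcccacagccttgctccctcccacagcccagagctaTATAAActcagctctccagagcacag
Postn had a TATAAA match that began 26 bases before the start, as 12.4% of the 32851 promoters in the table had somewhere in a window of this length, and Bgn had none. Bgn had 3 GGGCGG matches on the other strand, of which the 2 nearest the start overlapped, and 32.7% of promoters held this motif. Neither held CCAAT, which 33.8% of promoters held, the TEAD motif GGAATG, which 12.6% held, or the AP-1 motif TGANTCA, which 6.75% held, on either strand. GC content was 64.4% for Bgn and 52.0% for Postn, around a median of 52.4%. These are matches of letters in the windows and not measured sites.

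In the cells past both gates 7 of the 10 genes were higher than in the other stellate-gated cells, and Dcn, Postn and Fn1 were lower, as Reln and Lrat were. In the AEG-1fl/fl library these 44 cells had, compared with the 218 other stellate-gated cells, lower Reln and Lrat by −0.57 (−0.75 to −0.39) and −0.93 (−1.22 to −0.64) on the log2 scale. Postn and Dcn were lower too, by −0.74 and −0.21. Bgn was higher by 1.21, Sparc by 1.29, Lum by 0.92 and Fbn1 by 1.91. The AEG-1DMAC library gave the same signs for these genes, although without its deepest cell the intervals of Dcn and Postn held 0, and its 18 cells were higher by 1.66 for Bgn, 1.14 for Sparc, 1.53 for Lum and 1.03 for Fbn1. The fibroblast gate rests on 12 markers, of which Eln, Fbln2 and Mfap4 are matrix genes, so a gene that varies with them is higher in these cells by choice, and these values are a description.

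**Figure D4:**
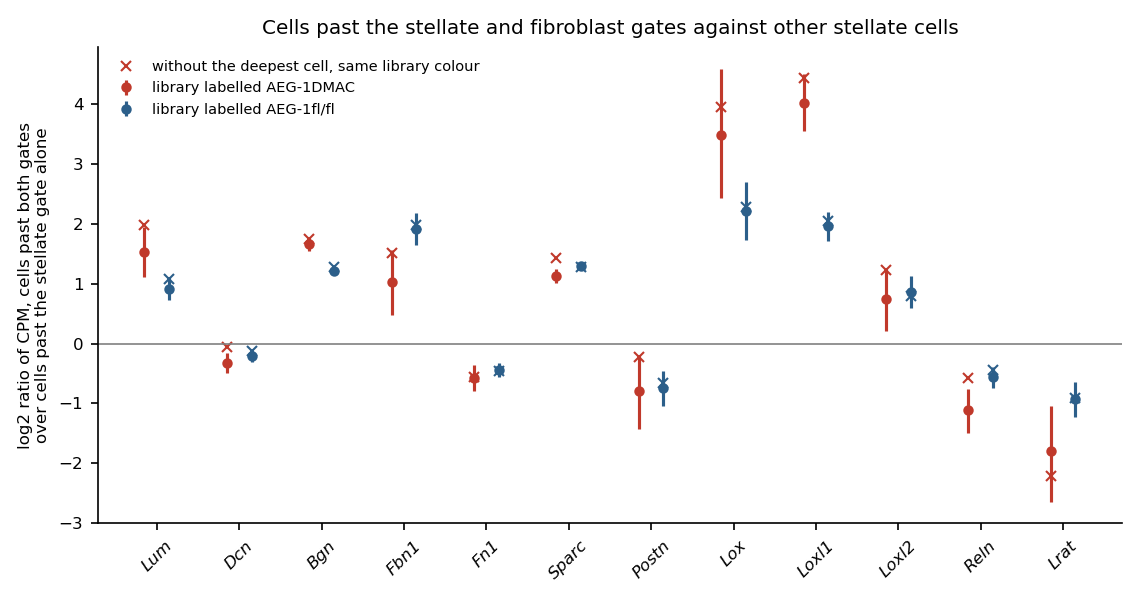
Log2 ratio of CPM in the 18 and 44 cells past both the stellate and the portal fibroblast gate over that in the 131 and 218 cells past the stellate gate alone, by library, with 95% intervals for counting error; crosses leave out the deepest cell of the class. Lum, Bgn, Fbn1, Sparc, Lox, Loxl1 and Loxl2 are above 0 and Fn1, Dcn, Postn, Reln and Lrat below 0 in both libraries.

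Between the libraries, 9 of the 10 genes were also below 0 in the cells past both gates, as were 59.4% of all genes compared there. Reln and Lrat summed were at −1.22 (−1.58 to −0.88) on 83 and 399 counts. Relative to them the median of the 10 genes was 0.42, all but Fbn1 were above 0, and Loxl1 was at 1.42 (0.94 to 1.90). On this scale the median over all 5911 genes compared was higher still, at 1.06. Values above 0 here were thus not particular to the 10 genes. On the CPM scale Fbn1 and Postn were at least 2-fold lower in the AEG-1DMAC library, 2 of 10 against 12.3% of all 5911 genes compared in this class, and the median of the 10 genes was −0.80. In the AEG-1DMAC library 1 of the 18 cells held 37.3% of the counts of the class. Without the deepest cell of each library none of the 10 was 2-fold lower. Hepatocyte RNA made up 48.0 and 18.7% of the hepatocyte level in these cells, and its part in these differences was not tested.

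The crosslinking enzymes were all higher in the cells past both gates. Loxl1 (chr9:58287738-58313186, minus strand), which acts mainly on elastic fibres, stood at 758 and 663 CPM there and at 46.8 and 171 CPM in the stellate-gated cells. Loxl2 (chr14:69609068-69695834, plus strand) stood at 233 and 425 CPM against 139 and 234 CPM. Lox itself (chr18:52516067-52529867, minus strand) stood at 128 CPM (22 counts) and 187 CPM (66 counts) against 11.5 CPM (13 counts) and 40.1 CPM (85 counts). The log2 ratio of the classes in the AEG-1fl/fl library was 1.96 (1.71 to 2.20) for Loxl1, 0.86 (0.59 to 1.13) for Loxl2 and 2.22 (1.74 to 2.70) for Lox.

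In the stellate-gated cells Loxl1 had the lowest ratio of the 10 between the libraries, at −1.87 (−2.31 to −1.45), or −1.23 (−1.69 to −0.80) relative to Reln and Lrat. It rested on 53 and 362 counts. When thinned, 7.41% (3.25 to 14.1%) and 22.6% (16.8 to 29.3%) of cells held a count (18.3 and 44.0% unthinned), against 0.44 and 0.64% of hepatocyte-gated cells. Lox differed by −1.81 (−2.77 to −0.96), or −1.17 (−2.14 to −0.31) relative to Reln and Lrat, and its 13 counts in the AEG-1DMAC library came from 11 cells. The thinned shares for Lox, 3.70 and 6.99%, had overlapping intervals.

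These differences depended on where the cells past both gates were counted. In those cells Loxl1 was not lower in the AEG-1DMAC library, with a log2 ratio of 0.19 (−0.13 to 0.51), or 0.53 (0.18 to 0.86) without the deepest cell of each library. With both classes joined, Loxl1 differed by −0.78 and Lox by −1.19, and relative to Reln and Lrat by −0.11 and −0.52. With cells assigned by their whole profile, 150 and 181 stellate and 63 and 158 stellate-and-fibroblast cells, the stellate ratios were −0.68 and −0.74. Lum moved less, to −1.46 with the classes joined and −1.02 by whole profile, where its relative value was −0.64, and across all alternatives tried its ratio lay between −2.01 and −1.02.

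Loxl2, which acts on collagen IV among other substrates, was close to Reln and Lrat summed with the gates as set. In stellate-gated cells it differed by −0.74 (−1.01 to −0.48), and relative to Reln and Lrat by −0.11 (−0.39 to 0.17). Across 14 alternatives the Loxl2 ratio lay between −1.28 and −0.40 and was at least 2-fold lower in 3. Its relative value lay between −0.71 and 0.20 over the gates and reference genes tried. Endothelial cells held it at 52.5 and 81.6 CPM, a log2 ratio of −0.64 (−1.03 to −0.24), against 5.48 and 5.72 CPM in hepatocyte-gated cells. Loxl1 and Lox stood at 3.32 to 8.86 CPM in endothelial cells.

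Counts of the same transcripts in hepatocyte-gated cells came from 1416 and 1325 cells, and whether they were free RNA, mixed droplets or attached cells was not tested. There Lum stood at 3.99 and 6.62 CPM, a log2 ratio of −0.73 (−0.96 to −0.51). Loxl1 stood at 1.31 and 2.36 CPM, −0.85 (−1.24 to −0.46), and Lox at 0.51 and 0.99 CPM, −0.96 (−1.60 to −0.34). Lum differed by −1.71 in the periportal group of hepatocytes and by −0.22 (−0.61 to 0.18) in the pericentral group. Loxl1 differed by −1.48 and −0.61 (−1.36 to 0.13) in these groups. Reln and Lrat had ratios of 0.21 (0.09 to 0.32) and 0.09 (−0.06 to 0.23) in these cells. Over all hepatocyte-gated cells Dcn and Sparc were at 0.19 and 0.19, Bgn at 0.00 and Postn at 0.12. These genes changed sign by group. In the periportal group Dcn was at −0.30, Sparc at −0.13, Bgn at −0.51 and Postn at −0.62. In the pericentral group they were at 0.25, 0.20, 0.16 and 0.29, the last with an interval that holds 0. Lum, Lox and Loxl1 were the genes lowest in the AEG-1DMAC library here as in the stellate-gated cells, though the readings share the libraries and are not independent. In these sums fewer source cells and less RNA per source cell cannot be told apart.

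Other matrix genes gave the setting. Of a list of 67 further matrix genes, 61 had at least 20 counts in stellate-gated cells. Of these, 57 were lower in the AEG-1DMAC library and 25 were at least 2-fold lower. The shares given above were 5.29% of all genes and 13.4% of genes at least 4-fold over hepatocyte-gated cells. The 25 came to 6 with cells assigned by whole profile, 15 with the cells past both gates joined to the stellate class and 16 with the hepatocyte profile taken off. The median of the 61 was −0.83, and −0.19 relative to Reln and Lrat. On that relative scale 9 of the 61 were at least 2-fold lower, against 1.39% of all genes. Collagens were at least 2-fold lower in 8 of 13, with Col1a1 at −2.11 (−2.19 to −2.02), Col1a2 at −1.86, Col15a1 at −1.65 and Col3a1 at −1.50. Eln, the elastin gene and a substrate of the lysyl oxidases, was at −1.52 (−2.13 to −0.95). Other elastic fibre genes were at least 2-fold lower in 6 of 13 with Eln counted, and glycoproteins and basement membrane genes in 8 of 17. The remaining small leucine-rich proteoglycans and relatives were so in 3 of 5. Those 3, Fmod, Ogn and Ecm2, rested on only 46, 24 and 23 summed counts. Prelp and Podn, with 4033 and 407 summed counts, were at −0.53 and −0.51.

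A further 13 genes of the list serve crosslinking and collagen processing, among them prolyl and lysyl hydroxylases inside the cell and secreted enzymes such as Bmp1. None was 2-fold lower, which with 13 genes cannot be set apart from the 5.29% of all genes. Their median was −0.36, and 0.27 relative to Reln and Lrat. Their 2 further lysyl oxidases were Loxl3 at −0.36 (−0.86 to 0.12) and Loxl4 at −0.01 (−0.65 to 0.60). The gene highest in the AEG-1DMAC library among the 61 was Thbs1, a matricellular activator of latent TGF-β, at 0.79 (0.47 to 1.11), short of 2-fold. Among the 10 genes, Lum, Lox and Loxl1 had ratios between those of Col1a1 and Col3a1. The ratios of Fn1, Dcn, Sparc and Loxl2 were the closest to that of Reln and Lrat summed. For Fn1 this did not hold with the hepatocyte profile taken off.

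**Figure D5:**
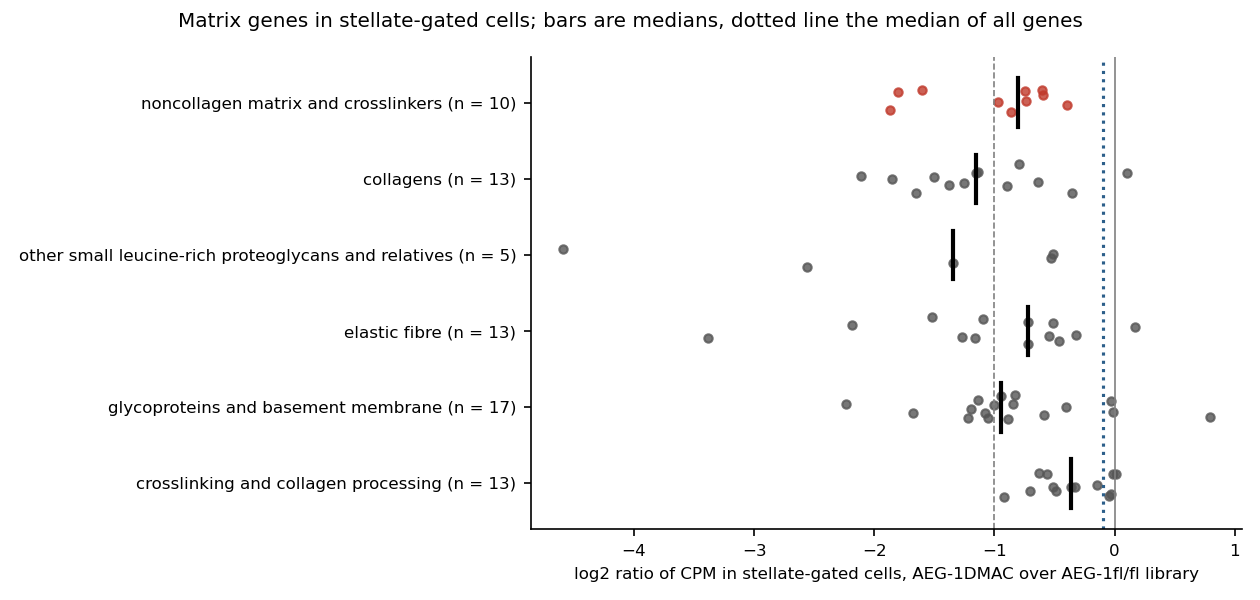
Log2 ratio of CPM in stellate-gated cells, library labelled AEG-1DMAC over library labelled AEG-1fl/fl, for the 10 genes (red) and for 61 other matrix genes by group (grey, 1 point per gene); black bars are medians, the dashed line marks 2-fold lower and the dotted line the median of all genes compared. The collagens have a median of −1.16 and the processing genes one of −0.36.

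Over the classes the genes formed 2 ends of a range. Correlations of log2 CPM over the 18 class-by-library sums, which share libraries and hepatocyte RNA and are given as a description, were highest between Fbn1 and Loxl2 (r = 0.96) and lowest between Fn1 and Lox (r = 0.27). Lox was most like Mmp2, a gelatinase, and Aebp1, a collagen-binding protein (r = 0.97 each), Loxl1 like Notch3 and Svep1 (r = 0.96 each), and Lum like Cpxm1 and Robo2 (r = 0.98 each). Bgn was closest to Gfpt2 and Tnxb, Fbn1 to Raph1 and Vstm4, Loxl2 to Vstm4 and Rcn3, Dcn after Colec11 to Igfbp3, and Fn1 to Nr1h4 and Bmp1, with r between 0.90 and 0.98.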

How the data were processed

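Cells of flash-frozen, fixed and dissociated liver were read with a fixed-RNA probe assay (1 library per genotype). Per the labels and file headers, the authors counted probes with Cell Ranger 7.1.0 on mm10, and the deposited matrices hold raw counts per gene and cell, filtered by the authors to called cells. Totals were 79589511 and 90440089 counts in 2581 and 3535 cells (AEG-1DMAC, AEG-1fl/fl). Cells were dropped here below 100 genes or above 10% mitochondrial counts. Classes were gated by the share of counts in marker genes (stellate: 32 per 10000 in at least 3 of 17 markers; thresholds were set after marker shares were seen). Hepatocytes passed no gate and held at least 512 per 10000 in hepatocyte markers. Cells past several gates were left out, except those past exactly the stellate and portal fibroblast gates. No doublet caller was run. Counts were summed per class and library and given as CPM with exact Poisson intervals. Log2 ratios have exact binomial intervals and relative ratios exact conditional ones, at 95%. Genes with at least 20 summed counts were compared, and "called" meant a fold of at least 2. The hepatocyte share of a class is its hepatocyte marker share over that of hepatocyte-gated cells. Thinned shares used 1500 counts per cell. Likeness was Pearson's r of log2(CPM + 5) among genes with at least 200 gated counts.

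With 1 library per group no test was run. Named were the 10 genes, Reln, Lrat, Mtdh, markers used as checks and the 2 genes most like each of the 10. Also named were the up to 5 lowest and 5 highest matrix genes past 2-fold with at least 100 counts. Loxl3, Loxl4, Thbs1, Fmod, Ogn, Ecm2, Prelp and Podn were named after their values were seen. The genes and lists were chosen with earlier results of these data known. Alternatives changed the gates, the class assignment, the CPM total, the cell filters, the count minimum and the reference genes. The work used SciPy 1.17.1, pandas 2.3.3 and NumPy 2.4.6 under Python 3.11.15, and the scripts were tested on simulated data.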

Additional observations from a re-analysis of the deposited data

Results flagged for a closer look

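For 3 of the genes the log2 ratio between the libraries lay on opposite sides of 0 in different classes of at least 100 cells, with intervals for counting error that did not hold 0, and the difference between classes was not tested. Dcn was at −0.59 (−0.66 to −0.53) in stellate-gated cells and at 0.60 (0.45 to 0.74) in macrophages, where it stood at 208 and 138 CPM and 1 cell held 14.2 and 18.0% of its counts. The stellate genes Reln, Lrat and Ecm1 moved the same way in macrophages, at 0.62, 0.62 and 0.91, and the part of stellate RNA in the Dcn value was not tested. Fn1 was at −0.61 (−0.68 to −0.53) in stellate-gated cells and at 0.19 (0.07 to 0.30) in endothelial cells. There it stood at 787 and 690 CPM, below the 857 and 732 CPM that the hepatocyte RNA present would give. In the AEG-1fl/fl library 1 endothelial cell held 17.4% of its counts. Sparc was at −0.74 (−0.81 to −0.67) in stellate-gated cells and at 0.19 (0.14 to 0.23) in hepatocyte-gated cells, where it stood at 126 and 111 CPM. Reln and Lrat were at 0.21 and 0.09 in hepatocyte-gated cells, and the part of stellate RNA in the Sparc value was not tested.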

How the results depend on the processing

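In stellate-gated cells the ratios of all 10 genes stayed below 0 under every alternative run, and Lum was at least 2-fold lower in 14 of 14. The count of genes at least 2-fold lower (3) was 6 with Reln, Lrat and Ecm1 in the gate, 1 by whole profile, 6 with marker shares halved and 5 with them doubled. The median (−0.80) was −1.03, −0.46, −1.07 and −0.995 in the same order, −0.68 without genes abundant in hepatocytes and −0.70 with the hepatocyte profile taken off. Relative to Reln and Lrat, the count (2) was 0 by whole profile, 0 against Lrat alone, 0 with the cells past both gates joined and 1 with shares halved. The relative median (−0.17) was −0.77 against Ecm1 alone and turned to 0.14 against Lrat alone, where Bgn turned to 0.083. In endothelial cells the count (2) was 1 by whole profile, 1 as a mean over cells, 1 without the deepest cells of each class, 0 with shares doubled and 4 with Eln and Fbln2 left out of the fibroblast gate. In cells past both gates it (2) was 0 by whole profile, 0 without genes abundant in hepatocytes, 0 as a mean over cells, 0 without the deepest cells, 0 without the single deepest cell of each library, 1 with stricter cell filters and 1 with the hepatocyte profile taken off. For the other matrix genes the count (25) was 6 by whole profile, 15 with the classes joined and 16 with the hepatocyte profile taken off, and the median (−0.83) was −0.35 by whole profile. The cause of these shifts was not tested.

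Halved and doubled shares, joined classes, the fibroblast gate without Eln and Fbln2, the profile taken off, Ecm1 alone and the deepest cell were chosen after seeing the data. Spread over cells, macrophage or hepatocyte groups and the shares over all genes were not recomputed. No paired analysis was possible because each genotype had 1 library, which also left no replicate to leave out. Lox, with 13 counts in one library, was the gene most limited by depth.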
